A study of Rattus norvegicus with 9 samples.

Results

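Gfap, Vim, Nes, Synm and S100b, the genes of the glial intermediate filaments and of the astrocyte calcium binding protein S100B, were followed in RNA sequencing of the ipsilateral L3 to L6 spinal cord of rats. They were taken by gene name, and 5 of the 34890 loci in the table carried these names (ENSRNOG00000002919, ENSRNOG00000018087, ENSRNOG00000018681, ENSRNOG00000014030 and ENSRNOG00000001295 in the same order). The study compared 3 groups of 3 samples from wild-type male Sprague Dawley rats, and no age was given in the labels. JA rats had a sham operation and received saline. SNI rats had a spared nerve injury, in which the tibial and common peroneal nerves were tied and cut while the sural nerve was left whole, and received saline. PLM rats had the same injury and received paeoniflorin at 20.65 mg/ml with liquiritin by gastric infusion for 21 days. The labels give liquiritin as 3.98, 3.99 and 3.100 mg/ml for the 3 PLM samples, whereas the methods of the study give 1 dose, the first of these, for the whole group. The comparisons ask how these genes stood after nerve injury, after the treatment of injured rats, and whether Gfap moved with the other filament genes. Whether each sample is 1 animal or a pool is not stated in the labels, so p-values measure the spread between samples.

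Intermediate filaments are rope-like polymers that give a cell mechanical strength. In astrocytes the main filament protein is GFAP, which co-assembles with vimentin, and nestin and synemin join these filaments as partners that do not polymerise on their own. Astrocytes that respond to injury are known for making more GFAP, vimentin, nestin and synemin together. S100B is a small calcium binding protein of astrocytes and some other glia that is also released and can act on the receptor RAGE.

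The unit was TPM, which scales each gene by its length and each sample to a common total. It can be compared between genes, and the sequencing depth behind each value is unknown because TPM keeps none. The general level of the loci also differed between groups. The 13 mitochondrial protein genes took 23.7% to 26.1% of TPM in SNI, 31.3% to 32.8% in PLM and 25.3% to 32.8% in JA. The median log2 fold change of all loci was -0.21 in PLM versus SNI, 0.12 in SNI versus JA and -0.10 in PLM versus JA. Each comparison was therefore made on the values as deposited and again after each sample was centred on its median log2 value, and all 5 genes passed the filter of a mean of 1 TPM in every comparison.

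Pairs of these genes ran together across samples, Gfap with S100b and Vim with Nes, and the DNA before the start of each is shown for them. These are the 250 bases upstream of the RefSeq start in GRCr8, 5′ to 3′ on the strand of the gene. Gfap is at chr10:88361662-88361911 on the minus strand, S100b at chr20:12381082-12381331 on the minus strand, Vim at chr17:81577011-81577260 on the plus strand and Nes at chr2:175736338-175736587 on the plus strand. Capitals mark a match on either strand to 1 of 4 motifs. They are TTCNNNGAA, the spacing bound by STAT factors, and TGANTCA, the site of AP-1 factors. The others are TATAAA, the core of many promoters with a fixed start, and CANNTG, the E box of helix-loop-helix factors. No matches overlapped.
Gfap: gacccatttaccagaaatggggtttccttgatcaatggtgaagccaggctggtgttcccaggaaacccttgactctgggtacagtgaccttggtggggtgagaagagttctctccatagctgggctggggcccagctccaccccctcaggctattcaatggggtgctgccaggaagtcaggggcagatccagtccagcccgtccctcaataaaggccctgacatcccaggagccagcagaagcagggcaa
S100b: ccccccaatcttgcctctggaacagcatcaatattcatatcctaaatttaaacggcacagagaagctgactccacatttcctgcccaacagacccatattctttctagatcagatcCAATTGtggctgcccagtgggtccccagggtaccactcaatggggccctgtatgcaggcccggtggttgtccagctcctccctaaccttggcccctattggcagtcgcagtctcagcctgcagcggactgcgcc
Vim: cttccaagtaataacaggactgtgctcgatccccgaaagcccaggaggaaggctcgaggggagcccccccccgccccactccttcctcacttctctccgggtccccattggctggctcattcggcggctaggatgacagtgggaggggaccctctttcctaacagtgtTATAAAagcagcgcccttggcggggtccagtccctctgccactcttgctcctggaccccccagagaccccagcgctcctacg
Nes: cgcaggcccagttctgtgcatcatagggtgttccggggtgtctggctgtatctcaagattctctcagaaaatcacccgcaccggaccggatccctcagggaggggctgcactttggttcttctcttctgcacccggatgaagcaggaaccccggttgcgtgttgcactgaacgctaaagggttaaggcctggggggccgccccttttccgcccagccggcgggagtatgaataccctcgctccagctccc

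In these windows TATAAA stood once, 82 to 77 bases before the start of Vim, and CANNTG stood once, as CAATTG 134 to 129 bases before the start of S100b. The Gfap and Nes windows held none of the 4 motifs, nor did that of Synm, which is not printed. Of 33469 rat windows of this length, 12.9% held TATAAA, 65.5% CANNTG, 7.67% TTCNNNGAA and 6.34% TGANTCA. No motif was shared within either pair. The GC content was 57.6% for Gfap, 54.8% for S100b, 62.4% for Vim, 60.4% for Nes and 49.2% for Synm, beside a median of 51.2%.

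S100b was the most abundant of the 5 genes, at rank 27 of all loci by mean TPM. It was followed by Gfap at rank 245, Vim at 534, Synm at 9018 and Nes at 9187. S100b was above Gfap in 9 of 9 samples and Vim was above both Synm and Nes in 9 of 9. Gfap was above Vim in 8 of 9 samples, the exception being PLM replicate 3. Synm was above Nes in 6 of 9, so these neighbours did not separate beyond their spread.

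Gfap was high in sham and injured cord and low after treatment. The JA samples held 741, 707 and 374 TPM, the SNI samples 586, 617 and 561, and the PLM samples 259, 248 and 216. The 3 PLM samples lay below every other sample, the SNI samples lay close together, and JA replicate 3 stood well below the other 2 JA samples. The means were 607 ± 202 TPM for JA, 588 ± 28.3 for SNI and 241 ± 22.1 for PLM (SD, n = 3).

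S100b was likewise lowest in PLM, at a higher level. JA held 2956, 2760 and 2305 TPM, SNI 3189, 2648 and 2381, and PLM 1768, 1914 and 1507. Again the PLM samples lay below all others, while JA and SNI overlapped. The means were 2674 ± 334 TPM (JA), 2739 ± 412 (SNI) and 1730 ± 206 (PLM), each SD with n = 3.

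Synm, which codes for synemin, was low throughout. It stood at 8.47, 7.11 and 4.40 TPM in JA, 10.3, 8.63 and 7.06 in SNI and 5.49, 4.88 and 6.44 in PLM. SNI was above PLM in every sample, and JA covered the whole PLM range and overlapped the lower part of SNI. The levels were 6.66 ± 2.07, 8.67 ± 1.64 and 5.60 ± 0.786 TPM in JA, SNI and PLM (SD, n = 3).

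Vim differed more within groups than between them. JA held 176, 209 and 336 TPM, SNI 133, 262 and 221, and PLM 136, 170 and 259. All 3 groups overlapped, and in each of them 1 sample reached more than 250 TPM (JA replicate 3, SNI replicate 2 and PLM replicate 3). The means were 241 ± 84.1 TPM for JA, 205 ± 65.8 for SNI and 188 ± 63.4 for PLM (SD, n = 3).

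Nes, which codes for nestin, was highest in those same 3 samples. It stood at 3.25, 5.19 and 16.6 TPM in JA, 3.59, 9.72 and 5.86 in SNI and 2.88, 4.71 and 8.38 in PLM. Its highest sample was 5.77 times its lowest, against 3.42 times for Gfap, 2.52 for Vim, 2.35 for Synm and 2.11 for S100b (TPM as deposited). The levels were 8.35 ± 7.22, 6.39 ± 3.10 and 5.32 ± 2.80 TPM in JA, SNI and PLM (SD, n = 3).

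**Figure D1:**
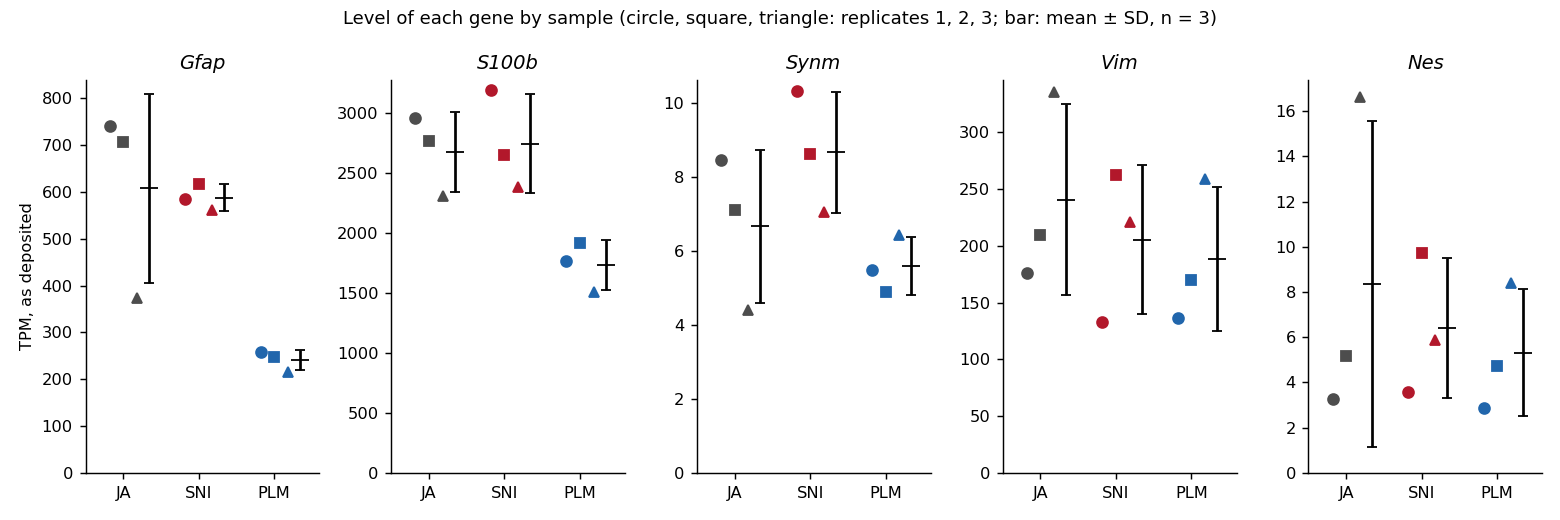
TPM of each gene (vertical axes, linear from 0) in the 3 samples of JA, SNI and PLM, with mean ± SD (n = 3). The PLM samples lie below all others for Gfap and S100b, and the groups overlap for Vim and Nes.

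After nerve injury none of the 5 genes was called. Gfap, the gene best known for its rise in injured cord, had a log2 fold change of 0.02 ± 0.26 (SE) in SNI versus JA, with a 95% interval of -0.59 to 0.62. S100b stood at 0.03 ± 0.14, Synm at 0.36 ± 0.23, Vim at -0.23 ± 0.32 and Nes at -0.15 ± 0.55. Adjusted p ran from 0.622 for Synm to 0.983 for Gfap (limma, Benjamini-Hochberg over 15557 loci).

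That comparison called 0.00% of the 15557 loci on the deposited values and 0.00% on the centred values. At an unadjusted p under 0.05 limma had 950 loci higher and 154 lower, and after centring 264 higher and 487 lower, with none of the 5 genes among them on either scale. Between SNI and JA 13.8% of loci had groups that did not overlap, and none of the 5 genes did. After centring, the log2 fold changes were -0.11 ± 0.23 for Gfap, -0.09 ± 0.12 for S100b, 0.24 ± 0.20 for Synm, -0.35 ± 0.36 for Vim and -0.27 ± 0.60 for Nes.

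Single samples turned the direction of these deposited values except that of Synm, which lay between 0.13 and 0.53 with any 1 sample left out. Without JA replicate 3 the log2 fold change of Gfap was -0.30 (adjusted p = 0.836 by limma), that of Nes 0.44 (adjusted p = 0.839) and that of Vim 0.04 (adjusted p = 0.981). S100b turned as well, to -0.07. Without SNI replicate 1 Vim was at 0.06, Nes at 0.15 and S100b at -0.08, and without SNI replicate 2 Gfap was at -0.02. No call changed.

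After treatment of injured rats, Gfap fell the most of the 5 genes. Between PLM and SNI its log2 fold change was -1.28 ± 0.08 (SE), a fall of 58.9% in TPM + 1, with a 95% interval of -1.48 to -1.09 and an adjusted p of 0.00396 (limma). Only 1.13% of the 15474 loci had a lower log2 fold change. S100b fell by 0.66 ± 0.13 on the log2 scale, or 36.7%, with an interval of -0.98 to -0.34 and an adjusted p of 0.0317 (limma). Both Gfap and S100b were therefore called lower, 2 of 5 genes, where 13.6% of all loci were called lower and 0.246% higher.

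The other 3 genes did not pass. Synm was at -0.54 ± 0.15 (interval -0.91 to -0.18, adjusted p = 0.0594 by limma) and its groups did not overlap. Vim was at -0.12 ± 0.32 (interval -0.88 to 0.64, adjusted p = 0.792) and Nes at -0.23 ± 0.41 (interval -1.22 to 0.75, adjusted p = 0.692). Groups without overlap were common here: they were found for 3 of the 5 genes, Gfap, S100b and Synm, and for 43.5% of all loci. The intervals for Vim and Nes were wide enough to hold a rise or a fall of about the size seen for S100b.

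Centring took away the general fall in PLM and left Gfap alone. On the centred values Gfap was at -1.04 ± 0.11 (interval -1.29 to -0.78, adjusted p = 0.0263 by limma), which made 1 of 5 genes, with 0.685% of all loci called lower and 0.129% higher. S100b was at -0.41 ± 0.14 (adjusted p = 0.222), Synm at -0.30 ± 0.14 (adjusted p = 0.34), Vim at 0.12 ± 0.31 (adjusted p = 0.874) and Nes at 0.01 ± 0.40 (adjusted p = 0.989). By the rule of an unadjusted p under 0.05 with a log2 fold change below -1, Gfap alone of the 5 was called, beside 1.42% of loci as deposited and 0.659% after centring.

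The call for Gfap on the deposited values held when any 1 of the 6 samples was left out, with adjusted p between 0.00739 and 0.0296 (limma). The call for S100b was lost without SNI replicate 1 (adjusted p = 0.0825), SNI replicate 2 (0.0545), PLM replicate 1 (0.104), PLM replicate 2 (0.076) or PLM replicate 3 (0.0662). The centred call for Gfap was lost without any 1 sample other than PLM replicate 1, with adjusted p up to 0.12 and a log2 fold change between -1.12 and -0.93.

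**Figure D2:**
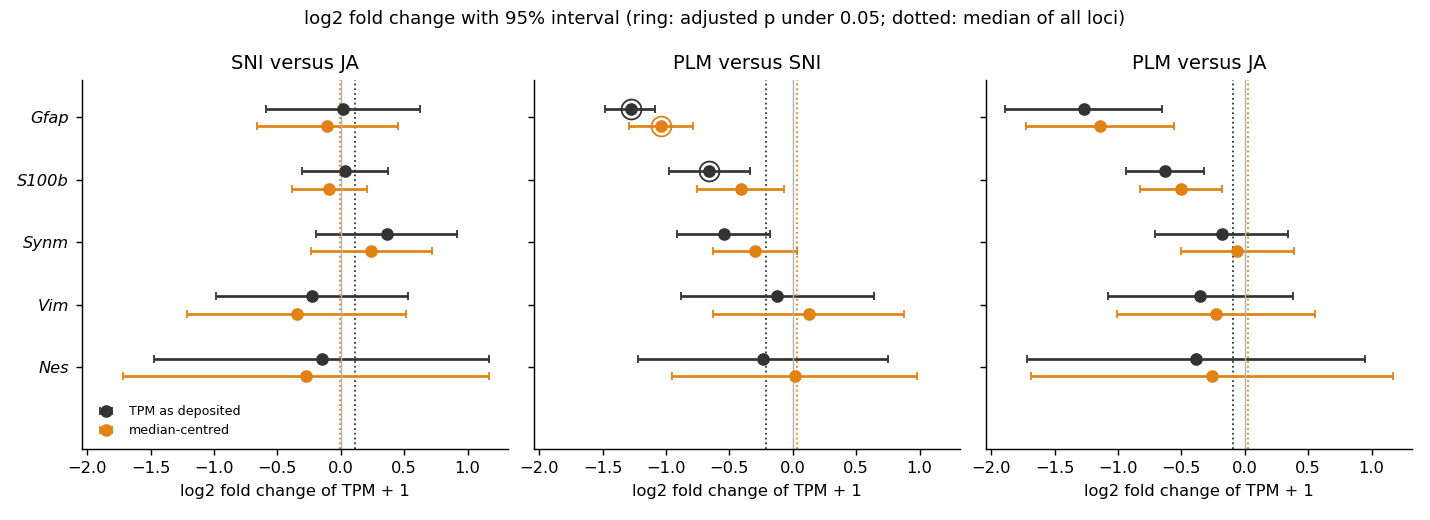
log2 fold change of TPM + 1 (horizontal axes) with its 95% interval for each gene in the 3 comparisons, on the deposited and the centred values. Rings mark an adjusted p under 0.05, which in PLM versus SNI is reached by Gfap on both scales and by S100b on the deposited values, and the dotted lines are the medians of all loci.

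PLM and JA were compared as well, and this comparison shares its PLM samples with the one above and its JA samples with the first. Gfap was at -1.27 ± 0.26 and S100b at -0.63 ± 0.13 on the log2 scale, each with an adjusted p of 0.276 (limma), so neither passed. Their groups did not overlap, which held for 2 of the 5 genes and 17.7% of all loci. Vim was at -0.35 ± 0.31, Nes at -0.39 ± 0.56 and Synm at -0.18 ± 0.22, with adjusted p of 0.675 to 0.808.

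Few loci passed in that comparison, 0.0195% as deposited and 0.0130% after centring. By the rule of unadjusted p and fold, Gfap was called on both scales, beside 0.658% and 0.306% of loci, and the other 4 genes on neither. The centred log2 fold changes were -1.14 ± 0.24 for Gfap, -0.50 ± 0.13 for S100b, -0.23 ± 0.33 for Vim, -0.26 ± 0.59 for Nes and -0.06 ± 0.19 for Synm. On the deposited values without JA replicate 3, Gfap was at -1.58 with an adjusted p of 0.0169 (limma), which passed, whereas no centred value passed with any 1 sample left out (lowest adjusted p = 0.0735).

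One limma F test over the 3 groups and 9 samples gave adjusted p of 0.0915 for Gfap, 0.0994 for S100b, 0.257 for Synm, 0.708 for Vim and 0.851 for Nes. It called 0.0194% of loci as deposited and 0.00% after centring, where Gfap had an adjusted p of 0.204 and S100b of 0.314. At an unadjusted p under 0.05 this test had 3680 loci as deposited and 1967 after centring, with Gfap and S100b among both.

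To ask directly whether Gfap moved with the other genes, each gene was set against Gfap in the same sample, as a difference in log2(TPM + 1). For low genes such as Nes and Synm this difference still depends somewhat on the scale and the pseudocount. In PLM versus SNI the change of Vim was 1.16 ± 0.32 log2 units above that of Gfap (adjusted p = 0.00678, limma) and that of Nes 1.05 ± 0.40 above (adjusted p = 0.0309). Synm was 0.74 ± 0.19 above (adjusted p = 0.00451) and S100b 0.63 ± 0.12 above (adjusted p = 0.000903). By this fit the change of each of the 4 was smaller than that of Gfap. The Nes difference was less firm, being lost with a pseudocount of 0.1 or without SNI replicate 1 or PLM replicate 3. Of all loci 94.2% differed from Gfap by this test, so a difference from Gfap was the rule and not a property of these 4 genes.

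The ratios themselves show the size of this change. Gfap stood at 4.39, 2.35 and 2.54 times the TPM of Vim in SNI and at 1.90, 1.46 and 0.837 times in PLM, and the groups did not overlap. Gfap stood at 0.184, 0.233 and 0.235 times S100b in SNI and at 0.146, 0.130 and 0.144 times in PLM, again without overlap. For Synm the ratios were 56.7, 71.5 and 79.4 in SNI and 47.2, 50.9 and 33.6 in PLM. How many of all loci had ratios to Gfap that separated these groups was not counted. By limma 94.2% of loci differed from Gfap here, so such separation is not read as particular to these genes. The exact permutation test (both sides) on the log2 ratio gave p = 0.1 for Vim, S100b and Synm, the smallest that 3 samples against 3 allow, and p = 0.2 for Nes.

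In the other 2 comparisons the picture differed. In SNI versus JA none of the 4 differed from Gfap in its change (differences from -0.24 to 0.35, adjusted p = 1 for each by limma), where 0.804% of loci did. In PLM versus JA the differences were 0.92 for Vim, 0.88 for Nes and 1.09 for Synm, with adjusted p of 0.0177, 0.0173 and 0.0045 (limma), and 0.64 for S100b with an adjusted p of 0.107. There 93.4% of loci differed from Gfap. The Vim and Nes differences in PLM versus JA were lost without JA replicate 1 (adjusted p = 0.241 and 0.524), JA replicate 2 (0.0972 and 0.173), PLM replicate 2 (0.0601 and 0.0608) or PLM replicate 3 (0.241 and 0.301). That of Synm was lost without PLM replicate 3 (0.0567), and that of S100b passed without JA replicate 3 (8.05e-05). In PLM versus SNI the Nes difference was lost without SNI replicate 1 (0.0767) or PLM replicate 3 (0.134).

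Over the 9 samples Gfap and S100b ran together, as did Vim and Nes, and Synm lay nearer the former. These correlations are on centred log2 values and are descriptions, since the samples share group and tissue composition. Vim and Nes had a Pearson r of 0.95 and a Spearman rho of 0.92, and r of 0.96 for the deviations from group means. Leaving out the 2 samples farthest from the median of Vim, SNI replicate 1 and JA replicate 3, gave 0.95. Of 15502 loci only 0.0645% were closer to Vim than Nes was.

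Gfap and S100b had r of 0.89 and rho of 0.85, with 1.3% of loci closer to Gfap. These values include the difference between the groups, and the deviations from group means alone had r of 0.56. Without PLM replicates 2 and 3, the samples farthest from the median of Gfap, r was 0.78.

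Gfap and Vim did not run together. Their r was -0.20 and their rho -0.15, and 56.8% of loci were closer to Gfap than Vim was. For the deviations from group means r was -0.68, and between Gfap and Nes it was -0.80, against -0.25 over all 9 samples. Within JA and within PLM, the sample highest in Vim and Nes (replicate 3 in each) had the lowest TPM of Gfap. In SNI the sample highest in Vim and Nes, replicate 2, was also the highest in Gfap. On the deposited values r was 0.93 for Gfap and S100b, 0.94 for Vim and Nes and -0.01 for Gfap and Vim. Synm was closer to Gfap (r = 0.52, rho = 0.63, and r of 0.66 for the deviations from group means, above the 0.56 of S100b) than to Vim (r = -0.62), and the latter value became 0.23 without SNI replicate 1 and JA replicate 3.

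**Figure D3:**
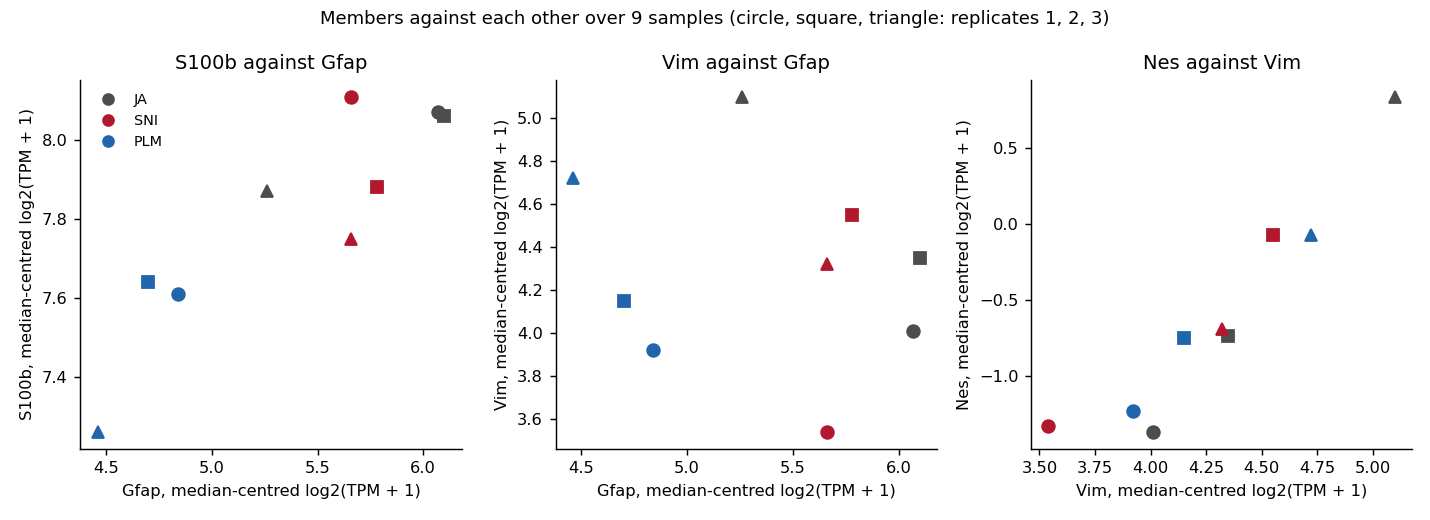
Centred log2(TPM + 1) of S100b against Gfap, of Vim against Gfap and of Nes against Vim, 1 point a sample (n = 9). S100b rises with Gfap (r = 0.89) and Nes with Vim (r = 0.95), while Vim shows no such line with Gfap (r = -0.20).

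The genes most like Gfap over the 9 samples, among 9662 loci averaging 5 TPM or more, included known astrocyte genes. The closest was S100a16, another member of the S100 family (r = 0.989), followed by Plxnb3 (0.986), Igfbp2, an insulin-like growth factor binding protein (0.982), and Aldh1l1, the folate enzyme used as an astrocyte marker (0.981). Tmem100 (0.975), Slc25a34, Pnp and Phgdh, the first enzyme of serine synthesis (0.971 each), made up the 8. S100a16 had means of 136 ± 24.7 TPM for JA, 144 ± 8.53 for SNI and 87.9 ± 3.60 for PLM (SD, n = 3). Aldh1l1 stood at 17.8 ± 5.51, 19.6 ± 1.29 and 8.52 ± 1.10 TPM. Both were low in JA replicate 3, at 107 and 11.8 TPM, as Gfap was.

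The genes most like Vim were others. They were Maob (r = 0.995), Vwa1, Cavin3, Tpm4, Cmtm6, Ahnak, Nes and Plxdc2, and none of them was among the 8 closest to Gfap. Maob, a monoamine oxidase, stood at 31.2, 33.7 and 46.6 TPM in JA, 26.1, 40.0 and 35.4 in SNI and 23.2, 29.1 and 37.0 in PLM. Its order of samples within each group was that of Vim.

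Markers of Schwann cells, fibroblasts and ependyma moved with Vim and Nes, while those of other cells did so less or ran the other way. The summed TPM of 7 Schwann cell markers reached 227.4, 80.75 and 1876 in the JA samples, 193.4, 1088 and 452.7 in those of SNI and 117.2, 275.6 and 805.3 in those of PLM, a range of 23.2 times. Pmp22, a peripheral myelin gene, carried most of each sum, with 186, 65.0 and 1607 TPM in the JA samples, and Mal2, Cdh19 and Pou3f1 ranged less, from 6.92 to 11.4, 3.31 to 6.59 and 0.44 to 2.10 TPM. Among them Prx, which codes for periaxin of myelinating Schwann cells, held 13.9, 2.37 and 125 TPM in JA, 8.50, 73.7 and 27.4 in SNI and 4.54, 15.1 and 54.7 in PLM. In each group the sample highest in these markers was the one highest in Vim and in Nes. JA replicate 2 ran against this, with the fewest Schwann cell markers of all samples and the middle Vim level of its group.

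Over the 9 samples the mean log2 level of the Schwann cell markers had r of 0.80 with Vim and 0.86 with Nes, and of -0.36 with Gfap, -0.45 with Synm and -0.43 with S100b. Mal2 stood apart within this list, with r of 0.276 with Vim and -0.827 with Gfap. The other markers of the list had r of 0.73 to 0.806 with Vim. For 8 fibroblast markers r was 0.78 with Vim and 0.80 with Nes, and for 7 ependymal markers 0.81 and 0.68. With Vim r was lower for mural (0.525), oligodendrocyte (0.365), endothelial (0.343) and microglia markers (0.137). For neuron (-0.463) and oligodendrocyte precursor markers (-0.641) it was below 0. No Schwann cell marker was at 0 in all samples. The part of these cells in the Vim and Nes values was not tested. Without the sample of each group highest in Schwann cell markers, a choice made after seeing the data that leaves 2 samples a group, PLM versus SNI was -0.17 ± 0.27 for Vim and -0.25 ± 0.30 for Nes (adjusted p = 0.661 and 0.558 by limma). Gfap was then at -1.17 ± 0.06 (adjusted p = 0.0272), S100b at -0.58 ± 0.15 (0.0972) and Synm at -0.63 ± 0.20 (0.116). On the centred values Gfap was at -0.90 ± 0.07 and lost its call (adjusted p = 0.158).

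Astrocyte markers ran with Gfap over the 9 samples. The summed TPM of 15 such genes reached 4748, 3866 and 2566 for JA, 4932, 4729 and 4489 for SNI and 2730, 2446 and 2386 for PLM. JA replicate 3 lay within the PLM range here, whereas for Gfap it lay above it. The mean log2 level of these markers had r of 0.91 with Gfap, 0.79 with S100b, 0.73 with Synm, -0.43 with Vim and -0.42 with Nes (n = 9).

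In SNI versus JA none of the 15 markers passed, and all 15 had a log2 fold change above 0 as deposited. The median was 0.54 beside 0.12 for all loci, and 0.41 beside -0.01 after centring, where Gfap stood at 0.02 and -0.11. The JA samples were spread widely: the marker sum of JA replicate 1, 4748, lay within the SNI range, and that of JA replicate 3 was 2566. These medians were not examined without JA replicate 3. In PLM versus SNI 14 of the 15 astrocyte markers fell, with a median log2 fold change of -1.44 beside -0.21 for all loci, and after centring 10 fell, with a median of -1.19 beside 0.04. Of all loci 13.6% and 0.685% were called lower on these scales. Aldoc, an astrocyte enzyme of glycolysis, was at -0.80 ± 0.09 and Glul, glutamine synthetase, at -0.59 ± 0.06. Atp1b2, a sodium pump subunit, was at -1.44 ± 0.11 and Aqp4, the water channel of astrocyte endfeet, at -1.19 ± 0.16, and these 4 passed as deposited. The exception as deposited was Sox9, an astrocyte transcription factor, at -0.47 ± 0.24 (adjusted p = 0.195 by limma). After centring Atp1b2 passed (adjusted p = 0.0274 by limma). Aldoc (0.0978), Glul (0.116), Aqp4 (0.0749), Slc7a10 (0.0837) and Sox9 (0.672) did not. In bulk tissue fewer cells of a type and less RNA per cell cannot be told apart.

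Set against the mean log2 level of these 15 markers, a measure chosen after seeing the data and not tested, Gfap no longer stood lower in PLM than in SNI, and it stayed lower in PLM than in JA. This log2 difference came to 2.90, 3.30 and 3.14 for JA, 2.54, 2.61 and 2.73 for SNI and 2.64, 2.72 and 2.68 for PLM. SNI and PLM overlapped, and the 3 JA samples lay above all others. The share of all loci with JA above the others on this measure was not counted. The position of JA is therefore not read as particular to Gfap. For S100b the log2 difference came to 5.30 ± 0.43 for JA, 4.83 ± 0.14 for SNI and 5.51 ± 0.14 for PLM, and for Synm it was -3.17 ± 0.20, -3.32 ± 0.14 and -2.52 ± 0.29 (SD, n = 3). SNI and PLM did not overlap for S100b, Synm or Vim, all higher in PLM, and the same held for 93.1% of the loci outside this marker list. For Vim the difference was 1.06 ± 0.56 in SNI and 2.27 ± 0.62 in PLM.

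**Figure D4:**
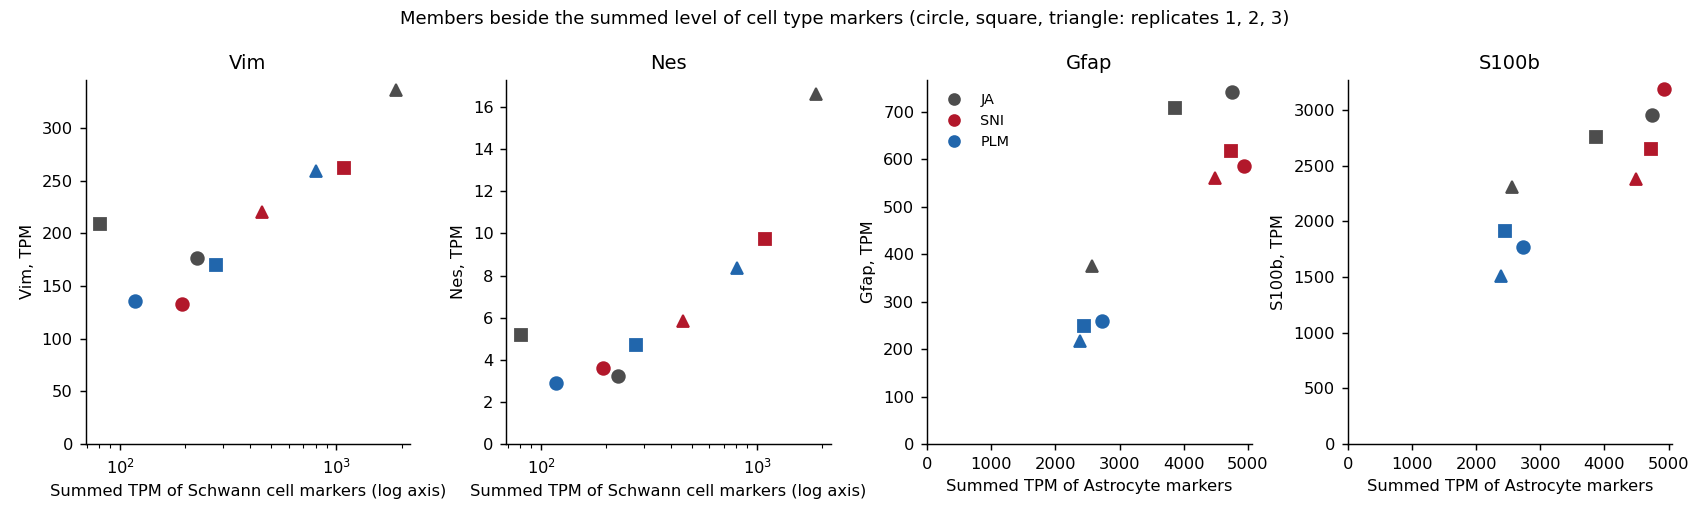
TPM of Vim and Nes against the summed TPM of 7 Schwann cell markers (log axis) and of Gfap and S100b against that of 15 astrocyte markers (linear axis), 1 point a sample. Vim and Nes are highest in JA replicate 3, where the Schwann cell sum is 1876, and Gfap and S100b are lowest in the PLM samples, where the astrocyte sum is 2386 to 2730.

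Few markers of the remaining cells passed the test between PLM and SNI. None of 10 neuron markers, 10 oligodendrocyte markers, 4 oligodendrocyte precursor markers, 7 ependymal markers, 8 mural cell markers or 7 Schwann cell markers passed on either scale. Of 10 microglia markers Tmem119 fell as deposited and none passed after centring, where 13.6% and 0.685% of all loci were called lower. Of 8 endothelial markers none passed as deposited and Tie1 rose after centring, beside 0.129% of all loci, and of 8 fibroblast markers Slc6a13 and Igfbp2 fell as deposited and Igfbp2 after centring, beside the same shares of 13.6% and 0.685%. Igfbp2 was also among the 8 genes most like Gfap (r = 0.982) and had r of -0.18 with Vim, so its fall is not read as one of fibroblasts. Several of these lists nevertheless stood on one side of 0. After centring, where the median log2 fold change of all loci was 0.04, all 8 endothelial markers were above 0 (median 0.40), as were 9 of 10 microglia markers (median 0.32) and all 10 oligodendrocyte markers (median 0.14). Of the fibroblast markers 7 of 8 were below 0 as deposited, with a median of -0.57 beside -0.21 for all loci.

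Other genes that astrocytes raise after injury stood near the median of all loci in PLM versus SNI and below it in both comparisons with JA. Of 26 such genes listed and 21 tested in PLM versus SNI, 3 fell and none rose, with a median log2 fold change of -0.25 beside -0.21 for all loci, and after centring 1 fell. Of all loci 13.6% were called lower as deposited, near the share of this list, and 0.685% after centring, where 1 of 21 passed. The 3 were Chi3l1, a secreted chitinase-like protein, at -1.33 ± 0.12, Cd44, a hyaluronan receptor, at -0.84 ± 0.16, and Stat3, at -0.52 ± 0.09, and Chi3l1 passed after centring as well (-1.08 ± 0.14). Among the most abundant, Srgn was at 0.20 ± 0.13 (adjusted p = 0.276 by limma) and C3, a complement protein, at -0.59 ± 0.22 (adjusted p = 0.102). The mean level of this list had r of 0.86 with Vim and 0.75 with Nes, and of 0.26 with Gfap (n = 9). In SNI versus JA none of the 21 passed, and 15 had a deposited log2 fold change below 0, with a median of -0.11 beside 0.12 for all loci. In PLM versus JA none passed either, and 19 of 21 were below 0, with a median of -0.44 beside -0.10 for all loci.

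Of 22 genes listed and 18 tested that carry signals to the Gfap gene, 5 fell in PLM versus SNI and none passed after centring, beside 13.6% and 0.685% of all loci called lower. They were Cntfr, the receptor subunit for ciliary neurotrophic factor, at -0.83 ± 0.12, the transcription factors Nfix at -0.58 ± 0.11 and Stat3, the kinase Jak1 at -0.32 ± 0.07 and Smad1 at -0.38 ± 0.08. The list median was -0.38 as deposited and -0.13 after centring, beside 0.04 for all loci. The ligand Cntf was at -0.20 ± 0.32 (adjusted p = 0.672 by limma).

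Of the linkers and chaperones of the filaments, 12 listed and 8 tested, 3 fell as deposited and none passed after centring, beside 13.6% and 0.685% of all loci called lower, with medians of -0.38 and -0.13. Those that fell were Plec, plectin, which ties intermediate filaments to other structures, at -0.56 ± 0.09, Macf1, a linker of actin and microtubules, at -0.46 ± 0.10, and Dtna, dystrobrevin alpha, at -0.34 ± 0.07. The small heat shock proteins Cryab (-0.07 ± 0.11), Hspb1 (-0.40 ± 0.16) and Hspb8 (-0.39 ± 0.12) and the linker Dst (-0.25 ± 0.09) did not pass.

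Of 14 other intermediate filament genes listed and 10 tested, only Lmnb1, a nuclear lamin, fell (-0.50 ± 0.11), and none passed after centring, beside 13.6% and 0.685% of all loci, with medians of -0.27 and -0.03. The neuronal filament genes did not pass, with Nefm at -0.40 ± 0.11 (adjusted p = 0.0527 by limma), Nefl at -0.32 ± 0.13, Nefh at -0.44 ± 0.13 and Prph at -0.29 ± 0.19.

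Of 13 other S100 genes listed and 10 tested, 3 fell, S100a16 (-0.71 ± 0.07), S100a13 (-0.61 ± 0.09) and S100a1 (-0.35 ± 0.07), and none passed after centring, beside 13.6% and 0.685% of all loci called lower. The list medians were -0.24 and 0.01. S100a10, the annexin A2 partner, was at -0.01 ± 0.11 and S100a6 at -0.16 ± 0.70. Their likeness to Gfap and Vim varied. S100a16 and S100a13 had r of 0.99 and 0.94 with Gfap and -0.25 and -0.18 with Vim, whereas S100a6 had r of 0.91 with Vim and -0.24 with Gfap (n = 9, centred).

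Ager, which codes for the S100B receptor RAGE, moved the other way. Its means were 2.70 ± 1.27 TPM for JA, 2.09 ± 0.40 for SNI and 4.84 ± 1.23 for PLM (SD, n = 3). It rose in PLM versus SNI, by 0.91 ± 0.19 on the log2 scale as deposited (adjusted p = 0.0335 by limma) and by 1.15 ± 0.17 after centring (adjusted p = 0.0496). Of all loci 0.246% were called higher as deposited and 0.129% after centring. The centred value lay just under the threshold, and Ager was not examined with samples left out. Tlr4, the other receptor listed, had a mean below 1 TPM and was not tested.

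**Figure D5:**
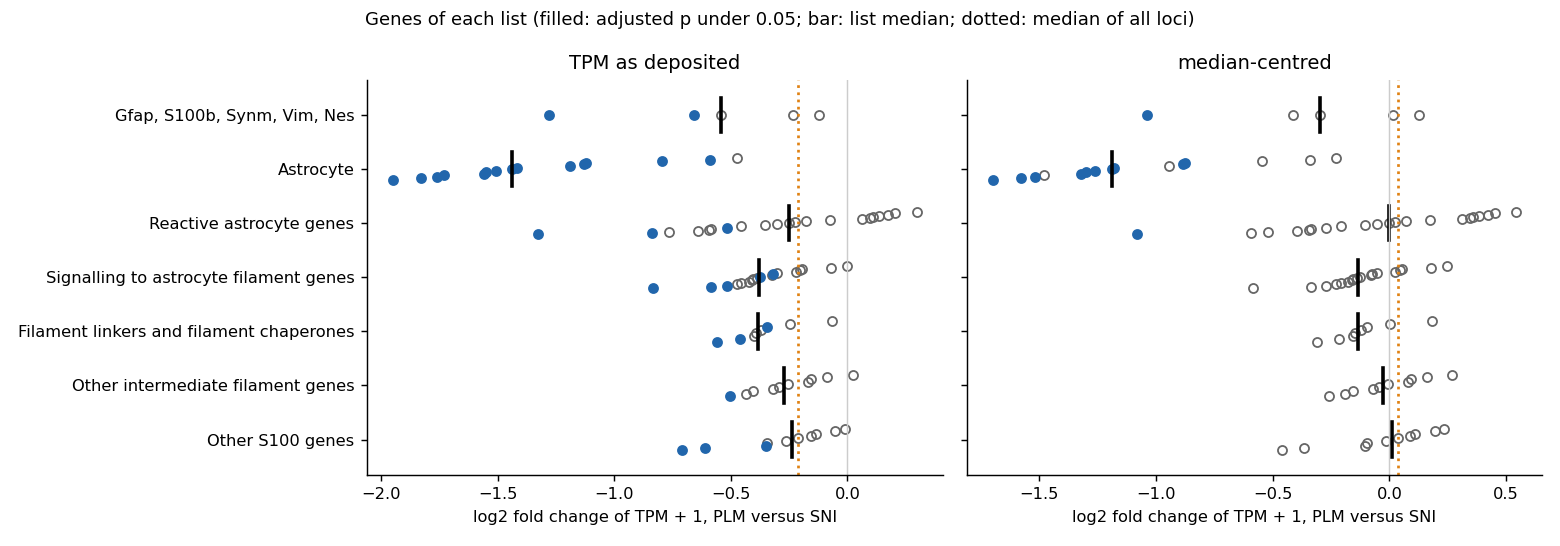
log2 fold change of TPM + 1 in PLM versus SNI (horizontal axes) of the 5 genes and of each gene tested in 6 lists, as deposited and after centring, with filled points for an adjusted p under 0.05. The astrocyte markers lie lowest (medians of -1.44 and -1.19), and the genes that astrocytes raise after injury lie around the median of all loci.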

How the data were processed

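Ipsilateral spinal cord RNA from 9 samples in 3 groups of 3 was sequenced. The authors deposited 1 table of TPM per gene. The sources name fastp 0.19.5, CASAVA, HISAT2 and StringTie, and the processing notes name GRCh38.p13, a human build, although the identifiers are rat Ensembl genes, so the build is unclear. RNA was taken from the ipsilateral L3 to L6 cord with removal of genomic DNA. Depth is unknown.

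Here TPM was used as log2(TPM + 1), and a locus was kept if its average in the compared samples reached 1 TPM. Groups were compared in pairs with limma 3.58.1 (R 4.3.3, variance trend, no covariate), with Benjamini-Hochberg adjustment over all loci and a threshold of 0.05, as deposited and with each sample centred on its median. For the change relative to Gfap, the value of Gfap was subtracted within each sample first. The scripts were tested on simulated data. Every gene of the set is given in every sample. The genes named as most alike are the 8 with the highest Pearson r (uniquely named, average of 5 TPM or more). From each list up to 4 of the highest mean TPM were named, with those that passed, or did not pass, where these were few. Cdh19 and Pou3f1 were named besides for their narrow range. The genes and lists were chosen with earlier results of these data known. Replicate numbers gave no pairing. Alternatives were another pseudocount, other filters, other scalings, all 9 samples in 1 fit, a replicate block and each sample left out. A further Schwann cell marker is not reported here.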

Additional observations from a re-analysis of the deposited data

How the results depend on the processing

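On the deposited values PLM versus SNI called 2 of the 5 genes. It called 1, Gfap, with no filter on low values, after median centring, quantile normalization or rescaling without the 13 mitochondrial genes, and without the samples highest in Schwann cell markers (chosen after seeing the data). On the centred values Gfap alone was called, and 0 were with all 9 samples in 1 fit or without those samples. With 1 sample left out the counts ran from 1 to 2 as deposited and from 0 to 1 centred, and in PLM versus JA from 0 to 1.

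Replicate numbers were shared by the groups but marked no known pairing. Same-numbered samples correlated between -0.0461 and 0.126 in their deviations, and 4 of 9 samples correlated best with their own number. With a replicate block PLM versus SNI called 1 gene as deposited, Gfap at -1.28 (adjusted p = 0.0211, limma), and 0 after centring (Gfap -1.04, adjusted p = 0.102). S100b was at -0.66 (adjusted p = 0.0738). The block changed no other call in the group comparisons on either scale, and it was not run on the change relative to Gfap.

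No call turned direction, and the reversals were of values that no fit called. In SNI versus JA Gfap and S100b were at -0.106 and -0.0895 after centring, -0.0754 and -0.0399 after quantile normalization, -0.0748 and -0.0586 without mitochondrial genes, and -0.336 and -0.0519 without the samples highest in Schwann cell markers, where Nes was at 0.13 (0.0433 centred) and stood 0.466 and Vim 0.173 above Gfap. In PLM versus SNI Vim was at 0.125 after centring, 0.0732 after quantile normalization and 0.0247 without mitochondrial genes, and Nes at 0.0141 after centring. Centred Nes was at -0.00555 with a pseudocount of 0.1 and -0.00229 with no filter, and in PLM versus JA at 0.0666 without the samples highest in Schwann cell markers.

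With 1 sample left out the ranges in SNI versus JA were -0.3 to 0.191 for Gfap, -0.43 to 0.0553 for Vim, -0.584 to 0.441 for Nes and -0.0829 to 0.128 for S100b, and centred -0.384 to 0.0377 for Gfap and -0.75 to 0.357 for Nes. Relative to Gfap they were -0.613 to 0.341 for Vim, -0.775 to 0.741 for Nes and -0.101 to 0.229 for S100b. In PLM versus SNI they were -0.405 to 0.0838 for Vim and -0.565 to 0.078 for Nes, and centred -0.175 to 0.332 and -0.304 to 0.329. In PLM versus JA they were -0.818 to 0.208 for Nes, and centred -0.738 to 0.372 for Nes, -0.465 to 0.0822 for Vim and -0.25 to 0.0704 for Synm.

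Synm was called in PLM versus SNI when 1 TPM was asked of every sample (-0.544, adjusted p = 0.0462, limma). S100b there lost its call with no filter (adjusted p = 0.0572), quantile normalization (-0.518, 0.0822) and rescaling without mitochondrial genes (-0.511, 0.121). With a pseudocount of 0.1 the change relative to Gfap no longer passed for Nes in PLM versus SNI (1.01, 0.0627) or for Vim and Nes in PLM versus JA (0.921, 0.053 and 0.844, 0.141), and centred Gfap with all 9 samples was at -1.03 (0.134). The causes of these shifts were not tested. TPM keeps no depth, so counting error could not be set beside the spread of the low genes Nes and Synm.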
